A study of Homo sapiens with 8 samples.

Results

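The genes described here are 10 enzymes of serine, asparagine and one-carbon metabolism and of linked steps, which the transcription factor ATF4 is known to regulate. They are PHGDH, PSAT1, PSPH, ASNS, SHMT2, MTHFD2 and ALDH1L2, with PCK2, CTH and GPT2 for the linked steps. They were chosen by name, with their higher levels in the libraries labelled CHEK1 knockdown already known, and all 10 were found among the 24351 genes of the table. The series profiled polyadenylated RNA by paired-end sequencing in ARP1 and H929, established human multiple myeloma cell lines that grow from malignant plasma cells. Each line gave 1 library of each of 4 genotypes, so 8 libraries in all: CHEK1 overexpression, its control ("control of overexpression"), CHEK1 knockdown and its control ("control of knockdown"). CHEK1 encodes a kinase of the DNA damage and replication checkpoint. The labels name no drug, dose or time, and do not say by which vector or RNA the CHEK1 level was raised or lowered, what the controls carried, or whether a library came from a clone or a pool of cells. The question put by the series is how the transcriptome differs between each CHEK1 state and its own control.

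Cells make serine from the glycolytic intermediate 3-phosphoglycerate in a chain of PHGDH, PSAT1 and PSPH. The mitochondrial enzyme SHMT2 splits serine into glycine and a one-carbon unit carried by folate, and MTHFD2 and ALDH1L2 oxidise that unit further. ATF4 is translated more when the initiation factor eIF2alpha is phosphorylated, as happens when amino acids run short or unfolded proteins build up in the endoplasmic reticulum, and it then raises transcription of enzymes, transporters and tRNA synthetases of amino acid supply. Plasma cells, the cell type from which both lines derive, secrete large amounts of antibody.

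CHEK1 itself served as the check of the labels. In ARP1 its level was 78.15 FPKM (fragments counted per kilobase of a transcript, scaled to library size) in the control of overexpression, 114 under overexpression, 61.0 in the control of knockdown and 51.6 in the library labelled knockdown. In H929 the levels were 81.55, 107, 80.7 and 84.8 in the same order. CHEK1 was thus higher under overexpression in both lines (log2 difference 0.47, SE 0.20) but did not pass limma (adjusted p = 0.994). It was lower in the ARP1 library labelled knockdown, but slightly higher than its control in the one from H929, so that state is named by its label throughout. All 8 plasma cell markers looked at passed the filter on low values, with sums of 1270 to 2487 FPKM, although SLAMF7 did so through ARP1 (13.3 to 27.4 FPKM) and was at 0.0778 to 0.201 in H929. Of 22 markers of B, T, NK, myeloid, stromal, fat, epithelial and red cells, 15 stayed under 1 FPKM in every library, and among these CD3D, NKG7, ADIPOQ and FABP4 were listed at 0 in all. Their summed level was 10.4 and 12.1 in the controls of overexpression (ARP1 and H929), 7.20 and 18.3 under overexpression, 8.45 and 11.9 in the controls of knockdown, and 6.19 and 9.44 in the libraries labelled knockdown. In bulk RNA, fewer cells of a type and less RNA per cell cannot be told apart.

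RefSeq windows around the start of transcription (GRCh38.p14) were available for 6 of the 10 genes. The stretches before the start of CTH (chr1:70411118-70411267, plus strand), MTHFD2 (chr2:74198465-74198609, plus strand), ASNS (chr7:97872469-97872558, minus strand) and PSAT1 (chr9:78296975-78297124, plus strand) are printed because they hold a matched pattern and their annotated starts lie close to the start of their main transcript. They include the gene with the steepest and the one with the shallowest course over the libraries, CTH and MTHFD2. Each is shown 5′ to 3′ on the strand of its gene, beginning 150 bases before the RefSeq start, with the matched letters in capitals: TGATGAAA in ASNS and CCAAT in the others.
CTH: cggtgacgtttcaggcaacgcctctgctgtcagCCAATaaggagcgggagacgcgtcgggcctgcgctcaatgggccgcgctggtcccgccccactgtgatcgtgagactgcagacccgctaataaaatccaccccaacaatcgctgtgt
MTHFD2: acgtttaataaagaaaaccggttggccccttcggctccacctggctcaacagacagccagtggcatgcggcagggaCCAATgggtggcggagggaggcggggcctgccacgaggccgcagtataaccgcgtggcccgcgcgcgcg
ASNS: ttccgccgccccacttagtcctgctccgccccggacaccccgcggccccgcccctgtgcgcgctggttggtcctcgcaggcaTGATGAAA
PSAT1: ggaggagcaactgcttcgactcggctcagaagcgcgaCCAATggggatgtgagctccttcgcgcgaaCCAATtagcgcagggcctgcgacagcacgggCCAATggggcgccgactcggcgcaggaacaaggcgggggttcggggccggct

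Both strands of windows reaching from 250 bases before to 50 after the RefSeq start were searched for TGATGNAA, a core of the composite C/EBP-ATF response element, and for the variant TGACGNAA. ASNS held TGATGAAA at 68 to 61 bases before the RefSeq start, with the last 3 bases inside its main transcript ASNS-202. That was the match in 1 of 6 genes, and 3.6% of the 35116 windows of the table held the pattern. TGACGNAA was in 0 of 6 genes and in 1.7% of all windows. CCAAT, the letters bound by the factor NF-Y and a pattern chosen after the sequences were seen, was in 5 of 6 genes, with 3 copies in PSAT1, and in 34.6% of all windows. No match of one pattern overlapped a match of another. These are descriptions of letters, and no binding was measured.

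**Figure D1:**
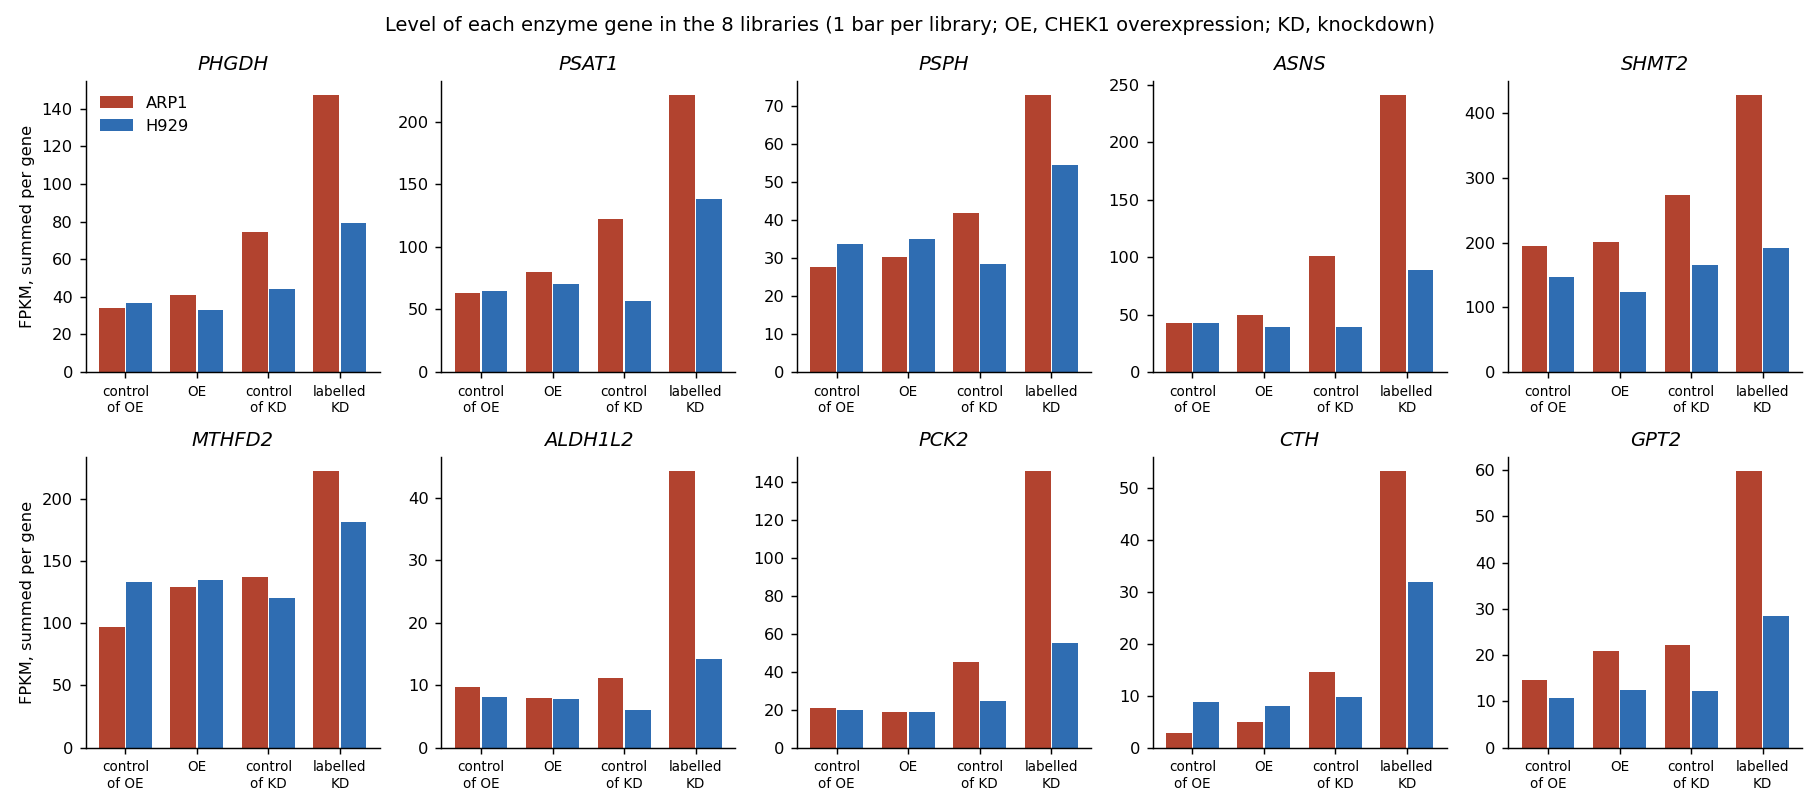
FPKM summed per gene (y axes from 0, a separate scale for each gene) in the 8 libraries, 1 bar per library, for the 10 enzymes; red bars are ARP1 and blue bars H929. In every panel the library labelled knockdown is the highest of its line, and in ARP1 the control of knockdown stands above the control of overexpression.

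The libraries labelled knockdown are described first. Because the genes were chosen with this contrast known, it carries no test here. All 10 genes were higher in the library labelled knockdown than in its control in both lines, where 27.2% of all 14905 genes tested were higher in both lines. In all 10 genes that library was also the highest of the 4 of its line, in ARP1 and in H929, against 11.8% of all genes. On the log2(FPKM + 1) scale, 5 of the 10 were 2-fold or more higher in ARP1 (4.54% of all genes), 6 in H929 (1.85%) and 5 in both lines (0.429%). The median log2 difference of the 10 genes was 1.11 in ARP1 and 1.13 in H929, and that of all genes -0.03 and 0.00. Since these shares concern the contrast behind the choice, they describe the set and test nothing.

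The serine chain begins with PHGDH, phosphoglycerate dehydrogenase (chr1:119648411-119744226, plus strand, GRCh38), which commits 3-phosphoglycerate to serine. Its level in ARP1 was 34.1 FPKM in the control of overexpression, 41.2 under overexpression, 74.4 in the control of knockdown and 147 in the library labelled knockdown. In H929 it was 36.7, 33.1, 44.1 and 79.05 in that order. The library labelled knockdown was 1.98-fold its control in ARP1 and 1.79-fold in H929, so the size was alike in the lines while the level it started from was not.

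PSAT1 (chr9:78297143-78330093, plus strand), the aminotransferase of the next step, was the most abundant of the 3 serine genes. It stood at 63.5, 79.9, 122 and 222 FPKM in ARP1, and at 64.8, 70.2, 56.4 and 139 in H929, in the same order. The ratio of the library labelled knockdown to its control was 1.81 in ARP1 and 2.46 in H929. PSAT1 and PSPH were the genes of the set whose log2 difference from this control was larger in H929 than in ARP1. Against the control of overexpression both were larger in ARP1, at 1.79 in ARP1 and 1.09 in H929 for PSAT1, and 1.37 and 0.68 for PSPH.

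PSPH (chr7:56011051-56051604, minus strand), the phosphatase that releases free serine, was at 27.5, 30.2, 41.7 and 72.8 FPKM in ARP1 and at 33.6, 34.9, 28.4 and 54.3 in H929. The ratio was 1.74 in ARP1 and 1.915 in H929. Within a library PHGDH was 0.947 to 2.02 times PSPH, and PSAT1 1.28 to 2.12 times PHGDH, so the chain kept its order of levels in 7 of the 8 libraries, the exception being H929 overexpression, where PSPH was just above PHGDH. The 3 genes together summed to 442 FPKM in the ARP1 library labelled knockdown against 238 in its control, and to 272 against 129 in H929.

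ASNS (chr7:97852118-97872542, minus strand), which amidates aspartate to asparagine and is a classical gene of the amino acid response, was at 42.3, 49.75, 101.2 and 241 FPKM in ARP1. In H929 it was at 42.5, 39.35, 38.8 and 88.85. The first 3 H929 libraries lay close together, whereas in ARP1 the control of knockdown was already above the control of overexpression. The ratio to its own control was 2.38 in ARP1 and 2.29 in H929, a log2 difference of 1.245 and 1.18. In the ARP1 library labelled knockdown ASNS was the second most abundant of the 10 genes, and in the other libraries it was the fourth or the fifth.

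SHMT2, MTHFD2 and ALDH1L2 form the mitochondrial arm of folate metabolism. SHMT2 (chr12:57229327-57234935, plus strand), serine hydroxymethyltransferase, was the most abundant gene of the set in 7 of 8 libraries, with 195.0, 201, 273 and 428.5 FPKM in ARP1 and 147, 124, 166 and 191 in H929. All 4 ARP1 libraries were above all 4 H929 libraries. The library labelled knockdown was 1.57-fold its control in ARP1 and 1.155-fold in H929, the smallest ratio of the 10 genes in each line.

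MTHFD2 (chr2:74198562-74217565, plus strand), which oxidises methylene-folate, was at 96.6, 129, 137 and 222.5 FPKM in ARP1 and at 133, 134.5, 119.9 and 181 in H929. The lines overlapped. The ratio was 1.62 in ARP1 and 1.51 in H929. ALDH1L2 (chr12:105019784-105084577, minus strand), which releases the one-carbon unit as carbon dioxide with production of NADPH, was at 9.72, 7.90, 11.2 and 44.4 FPKM in ARP1 and at 8.05, 7.77, 5.99 and 14.2 in H929. Its ratio of 3.95 in ARP1 was the largest of the set there, against 2.37 in H929. Whether the ratios of the lines differ could not be tested, since each rests on 1 library against 1.

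PCK2 (chr14:24094053-24110598, plus strand), the mitochondrial carboxykinase that turns oxaloacetate into phosphoenolpyruvate, was at 21.0, 19.0, 44.9 and 146 FPKM in ARP1 and at 20.05, 19.0, 24.4 and 55.0 in H929. The ratios of the library labelled knockdown to its control were 3.25 and 2.25. CTH (chr1:70411218-70439851, plus strand), cystathionine gamma-lyase, makes cysteine in the transsulfuration pathway. It was at 2.90, 5.01, 14.6 and 53.4 FPKM in ARP1 and at 8.88, 8.11, 9.79 and 32.0 in H929, with ratios of 3.66 and 3.27. As a ratio CTH had the widest span of the set, 18.4-fold between its lowest and its highest value, both in ARP1.

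GPT2 (chr16:46884378-46931297, plus strand), the mitochondrial alanine transaminase that links pyruvate and glutamate to alanine and 2-oxoglutarate, was at 14.6, 20.9, 22.2 and 59.9 FPKM in ARP1 and at 10.85, 12.5, 12.3 and 28.5 in H929. The library labelled knockdown was 2.70-fold its control in ARP1 and 2.31-fold in H929. The 3 genes of this group and ASNS and ALDH1L2 are the 5 that were 2-fold or more higher in both lines, and PSAT1 is the sixth in H929. The limma fit over both lines gave log2 differences of 1.71 (SE 0.48) for CTH, 1.51 (SE 0.36) for ALDH1L2, 1.41 (SE 0.34) for PCK2, 1.27 (SE 0.18) for GPT2 and 1.21 (SE 0.36) for ASNS. The others ran from 0.43 (SE 0.18) for SHMT2 to 1.07 (SE 0.26) for PSAT1. As the genes were chosen with this contrast known, the SEs describe the fit and test nothing.

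**Figure D2:**
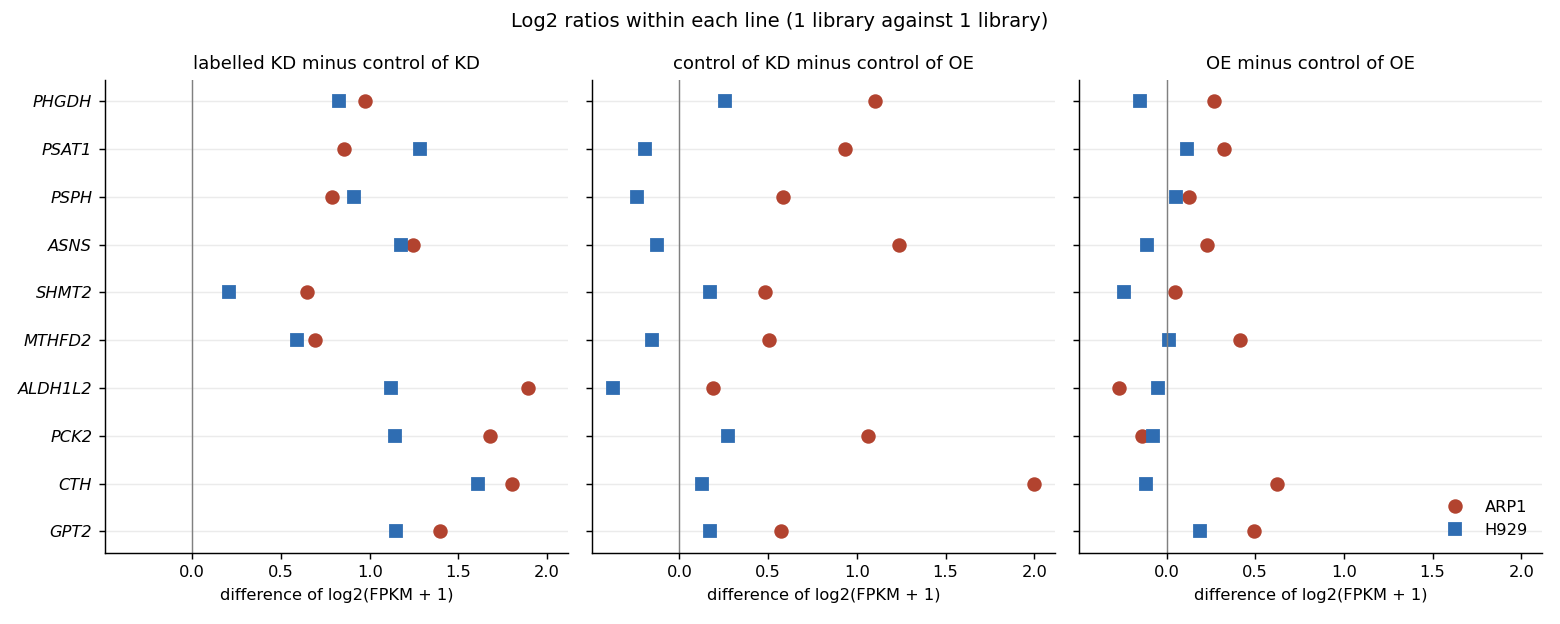
Differences of log2(FPKM + 1) between 2 libraries of a line (x axis) for each of the 10 genes (rows), with ARP1 as red circles and H929 as blue squares, and no error because each point is 1 library against 1. In the left panel (labelled knockdown against its control) all points lie right of 0, in the middle panel (control against control) the ARP1 points lie right of 0 and the H929 points on both sides, and in the right panel (overexpression against its control) the points gather near 0, from -0.27 to 0.63.

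In ARP1 the controls already differed, and this too shares a library with the contrast that chose the genes. All 10 genes were higher in the ARP1 control of knockdown than in the ARP1 control of overexpression, where 50.7% of all genes were. CTH was 5.04-fold higher, ASNS 2.39-fold, PHGDH 2.19-fold and PCK2 2.14-fold, which are the 4 genes at 2-fold or more on the log2(FPKM + 1) scale (2.99% of all genes). PSAT1 followed with 1.92-fold, GPT2 and PSPH with 1.52-fold, and ALDH1L2 was lowest with 1.16-fold. In H929 the ratio of the same controls ran from 0.744 for ALDH1L2 to 1.22 for PCK2, with 5 of 10 genes above 1 (51.1% of all genes) and 0 of 10 at 2-fold (2.63%). The median log2 difference between the controls was 0.76 in ARP1 and 0.00 in H929, with 0.01 for all genes in each line.

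The choice of control changed the size of the ARP1 values. Against the control of overexpression, the ARP1 library labelled knockdown was 18.4-fold higher in CTH, 6.96-fold in PCK2 and 5.70-fold in ASNS, while in H929 the same genes were 3.60-fold, 2.745-fold and 2.09-fold higher. On the log2(FPKM + 1) scale 10 of 10 genes were 2-fold or more higher in ARP1 (6% of all genes) and 6 of 10 in H929 (2.62%). The median log2 difference of the 10 genes was 2.02 in ARP1 and 1.07 in H929. The summed FPKM of the 10 genes was 507.1, 584.1, 843.0 and 1637.4 in ARP1 and 505.4, 483.5, 505.7 and 863.2 in H929, in the order control of overexpression, overexpression, control of knockdown and labelled knockdown. The libraries at the start of that order had like sums in the lines, and the ARP1 control of knockdown was near the H929 library labelled knockdown. What the controls carried is not stated in the labels, so the part of the control in these differences was not tested.

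CHEK1 overexpression was the contrast that the choice of genes did not use, and it was tested with limma over all 14905 genes, with the line as a block. None of the 10 genes passed an adjusted p of 0.05 (0 of 10, against 0.00671% of all genes, which is 1 gene), and 0 of 10 had an unadjusted p under 0.05 (4.45% of all genes). GPT2 came nearest to the threshold, with a log2 difference of 0.34 (SE 0.18, limma adjusted p = 0.994), higher in both lines. Of the 10 genes, 4 were higher in both lines (PSAT1, PSPH, MTHFD2 and GPT2, against 28% of all genes) and 2 lower in both (ALDH1L2 and PCK2, against 30.1%). In ARP1 8 of 10 were higher (46.8% of all genes), and in H929 4 of 10 (49.9%). The set's median log2 difference was 0.08, with 0.25 in ARP1 and -0.06 in H929.

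The other log2 differences under overexpression were small beside their errors or of like size. ASNS had a log2 difference of 0.06 (SE 0.36), PHGDH of 0.06 (SE 0.24), SHMT2 of -0.10 (SE 0.18), PCK2 of -0.11 (SE 0.34), ALDH1L2 of -0.16 (SE 0.36) and CTH of 0.25 (SE 0.48). CTH was 1.73-fold its control in ARP1 and 0.913-fold in H929. With 2 lines as the replicates (n = 2 per genotype) and SEs of 0.18 to 0.48, differences of several SEs can miss the threshold, as SHMT1 below shows, so the values do not show that the enzymes stayed at their control levels. The labels do not say whether libraries came from separate cultures, so a p-value here reflects only how these 8 samples scatter.

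The lines were compared over their 4 libraries each, with genotype in the model. These include the libraries labelled knockdown and their controls, which belong to the contrast behind the choice and where the summed level was higher in ARP1. In the controls of overexpression the 10 genes summed to 507.1 FPKM in ARP1 and 505.4 in H929, and under overexpression to 584.1 and 483.5. The part of the knockdown arm in the differences between the lines was not tested. SHMT2 was higher in ARP1 by 0.74 on the log2 scale (SE 0.13, limma adjusted p = 0.00870), with 274.5 ± 109 FPKM in ARP1 and 157 ± 28.5 in H929 (SD, n = 4 libraries of different genotypes), and it was higher in ARP1 in 4 of 4 genotypes. GPT2 was higher in ARP1 by 0.73 (SE 0.13, limma adjusted p = 0.00904), with 29.4 ± 20.6 against 16.05 ± 8.34 FPKM and again 4 of 4 genotypes. These 2 of 10 genes passed, both with ARP1 higher, where 13.7% of all genes passed in that direction and 27.1% in either. None was lower in ARP1 (0 of 10, against 13.4% of all genes), and 7 of 10 had an unadjusted p under 0.05 (41.1%). A share of 2 in 10 is near that background. SHMT2 was also the 1 gene of the set whose 4 ARP1 libraries all lay above the 4 H929 libraries (13.3% of all genes).

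The other 8 genes did not pass. ASNS was higher in ARP1 by 0.78 (SE 0.26, limma adjusted p = 0.0633), with ARP1 above H929 in 3 of 4 genotypes, ALDH1L2 by 0.66 (SE 0.25, adjusted p = 0.0953, 4 of 4), PCK2 by 0.58 (SE 0.24, adjusted p = 0.119, 3 of 4), PSAT1 by 0.48 (SE 0.19, adjusted p = 0.0996, 3 of 4) and PHGDH by 0.46 (SE 0.17, adjusted p = 0.0910, 3 of 4). PSPH, MTHFD2 and CTH were near 0, at 0.12 (SE 0.16), -0.01 (SE 0.14) and -0.17 (SE 0.34), and each was higher in ARP1 in 2 of 4 genotypes. Without the libraries labelled knockdown the differences were smaller for ASNS (0.56), PSAT1 (0.42), ALDH1L2 (0.36), PHGDH (0.315) and PCK2 (0.30), each with a limma adjusted p of 0.140 or more. In that fit, which still held the controls of knockdown, SHMT2 (0.61, adjusted p = 0.0073, limma) and GPT2 (0.63, adjusted p = 0.0140) passed. In the controls of overexpression alone, ASNS was at 42.3 FPKM in ARP1 and 42.5 in H929, and PSAT1 at 63.5 and 64.8. PHGDH was at 34.1 and 36.7 there, PCK2 at 20.96 and 20.05, and ALDH1L2 at 9.72 and 8.05. SHMT2 was at 195.0 and 147 in those controls, and GPT2 at 14.6 and 10.85. Without the genotype term 0 of 10 passed, with an adjusted p of 0.0563 for SHMT2 and 0.240 for GPT2. Over the alternatives run the adjusted p was 0.00467 to 0.0563 for SHMT2 and 0.00489 to 0.240 for GPT2.

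**Figure D3:**
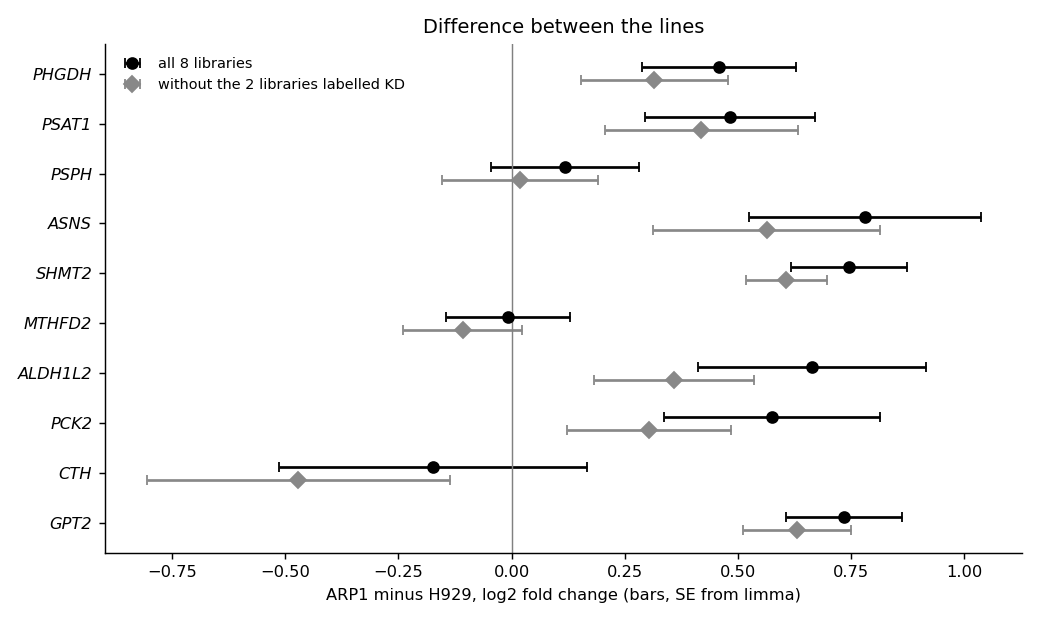
Log2 fold change of ARP1 over H929 (x axis) for the 10 genes (rows), with bars for the SE from limma; black circles use all 8 libraries and grey diamonds leave out the libraries labelled knockdown. SHMT2 and GPT2 lie well right of 0 in both fits (0.74 and 0.73 with all libraries), while PSPH and MTHFD2 lie near 0.

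FPKM is scaled by transcript length, so levels can be set side by side between the genes. Over the 4 controls (2 per line) the mean ± SD was 195.1 ± 55.7 FPKM for SHMT2, 122 ± 18.4 for MTHFD2, 76.7 ± 30.5 for PSAT1, 56.2 ± 30.1 for ASNS, 47.3 ± 18.6 for PHGDH, 32.8 ± 6.55 for PSPH, 27.6 ± 11.7 for PCK2, 15.0 ± 5.03 for GPT2, 9.04 ± 4.798 for CTH and 8.75 ± 2.25 for ALDH1L2. Neighbours kept that order in all 4 controls, except ASNS over PHGDH, PSPH over PCK2 and CTH over ALDH1L2, which held in 3 of 4. The gap was larger than the SD of either gene for SHMT2 over MTHFD2, MTHFD2 over PSAT1, PCK2 over GPT2 and GPT2 over CTH. For the other neighbours the gap was not larger than both SDs, and CTH and ALDH1L2 were 0.288 FPKM apart. These SDs run over libraries that the genes share, so they do not measure the spread of a gap within a library. Within libraries PSAT1 was above ASNS, and PHGDH above PSPH, in all 4 controls. By the mean of all 8 libraries SHMT2 stood at percentile 97.6 of the genes tested, MTHFD2 at 96.0 and PSAT1 at 94.0, down to 55.9 for ALDH1L2.

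The partner enzymes in other compartments or neighbouring steps put these levels in context. SHMT2 was 9.49, 6.54, 10.2 and 22.3 times its cytosolic paralog SHMT1 in the ARP1 libraries and 7.07, 3.48, 7.79 and 8.90 times in H929. The ratio was lower under overexpression in both lines: SHMT1 went from 20.6 to 30.8 FPKM in ARP1 and from 20.7 to 35.7 for H929 (log2 difference 0.66, SE 0.17, limma adjusted p = 0.994). MTHFD2 was 0.919 to 3.52 times the cytosolic MTHFD1, highest in the ARP1 library labelled knockdown. There MTHFD1 was 63.2 FPKM against 89.1 in its control.

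ALDH1L2 was 0.136 to 0.370 times its cytosolic paralog ALDH1L1, except in the ARP1 library labelled knockdown, where the ratio was 1.02. CTH was 2.08 times CBS, the enzyme before it in transsulfuration, in the ARP1 library labelled knockdown and 2.09 times in that of H929, while the other libraries ran from 0.220 to 1.01. The cytosolic PCK1 was listed at 0 in all 8 libraries, and GPT, the other alanine transaminase, did not exceed 0.305 FPKM. PCK2 and GPT2 were therefore nearly all of the RNA measured for these enzyme pairs.

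The table lists transcripts, and 68 belong to the 10 genes, of which 45 passed the filter on low values. PHGDH-208 carried 91.3% to 100% of PHGDH and PSAT1-202 93.6% to 98.0% of PSAT1, so those gene sums rest on 1 transcript each. MTHFD2-201 and MTHFD2-203 shared their gene about equally, at 46.0% to 52.0% and 47.8% to 53.7%. ASNS-202 held 74.3% to 88.6% of ASNS, with the lowest share in the ARP1 library labelled knockdown, where ASNS-201 was 16.7 FPKM against 3.77 in its control. CTH-202 ranged from 30.7% of CTH in the ARP1 control of overexpression to 77.5% in H929 overexpression.

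Of the 45 transcripts, 36 were higher in the library labelled knockdown than in its control in both lines (26.2% of the 36791 transcripts tested) and 2 were lower in both (26.8%), SHMT2-232 and PHGDH-209, a description only, since some passed the filter through those libraries. SHMT2-202, the main SHMT2 transcript, was at 69.5, 95.65, 151 and 231 FPKM in ARP1 and at 58.1, 56.5, 82.3 and 104 in H929. SHMT2-232 was at 42.7, 54.3, 48.2 and 31.5 FPKM in ARP1 and at 25.1, 30.6, 17.8 and 17.0 in H929, so it was lowest in the library labelled knockdown in each line, although in H929 by only 0.06 on the log2 scale. Its share of SHMT2 was 7.4% and 8.9% in the libraries labelled knockdown and 10.7% to 27.0% elsewhere. How StringTie divides reads among 15 SHMT2 transcripts bears on such shares, and that was not tested.

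Under overexpression 0 of the 45 transcripts passed (0.00272% of 36791 transcripts tested), and 1 had an unadjusted p under 0.05 (5.09% of all transcripts): PSPH-206, at -1.12 (SE 0.41, limma adjusted p = 0.954). For that transcript the ARP1 pair had 5.38 FPKM (control) and 3.82 (overexpression), and the H929 pair 2.57 and 0.004. Between the lines 5 of 45 passed, all higher in ARP1 (6.5% of all transcripts, either direction). They were SHMT2-232 by 0.95 (limma adjusted p = 0.0238), GPT2-201 by 0.78 (adjusted p = 0.0311), PSPH-206 by 1.59 (adjusted p = 0.0355), SHMT2-201 by 0.80 (adjusted p = 0.0381) and SHMT2-202 by 0.75 (adjusted p = 0.0459). PSPH as a whole gene did not pass, and PSPH-206 was at most 19.6% of it.

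**Figure D4:**
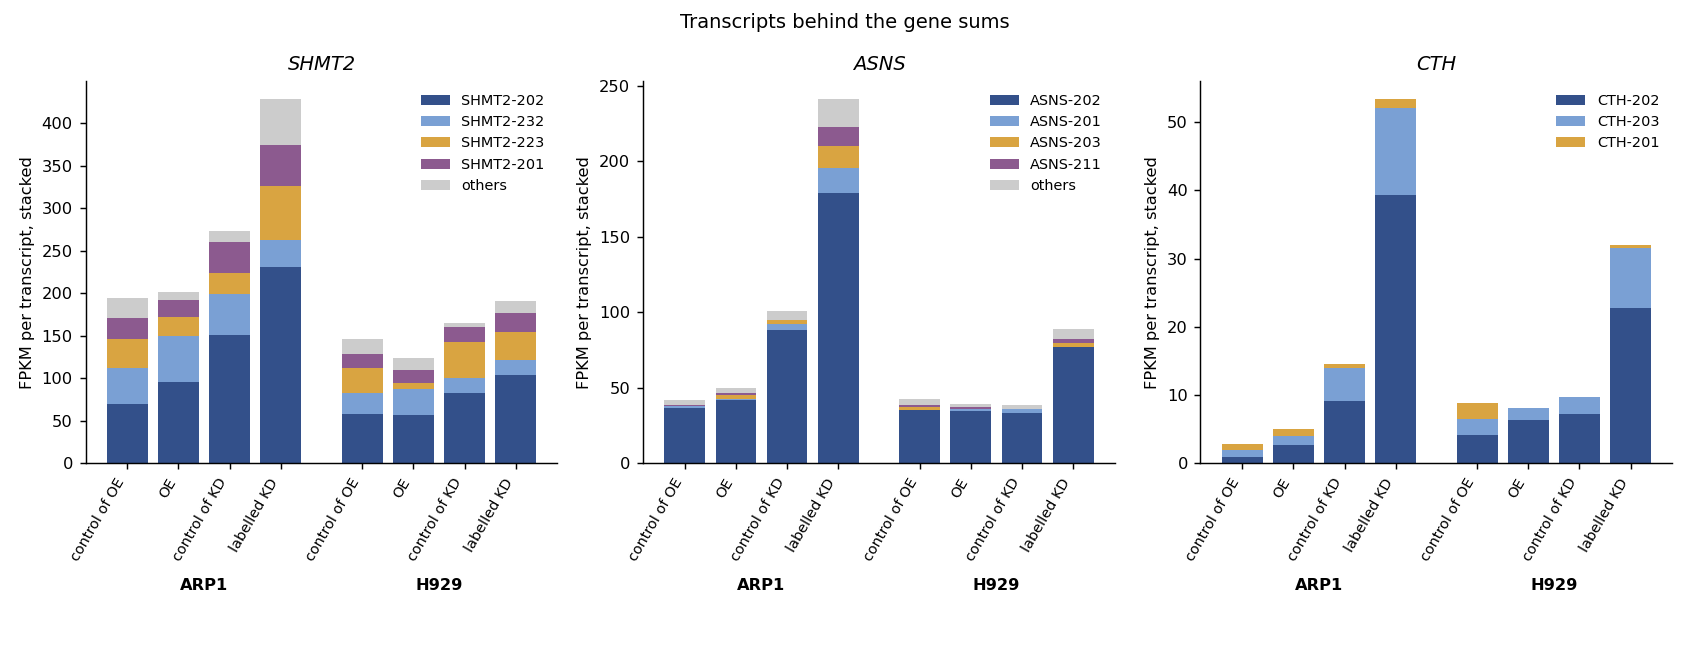
Stacked FPKM per transcript (y axes from 0) in the 8 libraries for SHMT2, ASNS and CTH; up to 4 of the most abundant transcripts are named and the rest pooled as others. ASNS-202 makes up most of ASNS in every library, whereas the SHMT2 bars split among several transcripts and SHMT2-232 is 31.5 FPKM in the ARP1 library labelled knockdown against 48.2 in its control.

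Some of these genes share exons with a gene on the opposite strand, and none of the sources used here says whether strand was used in counting, so their values are uncertain to the extent of the partner's reads. SHMT2 overlaps NDUFA4L2, which was at 2.06 to 11.1 FPKM and also higher in the libraries labelled knockdown (5.525 to 11.1 in ARP1, 2.06 to 5.57 in H929). MTHFD2 overlaps SLC4A5, at 4.78 to 11.4 FPKM and also higher in the libraries labelled knockdown (7.53 to 11.4 in ARP1, 5.08 to 6.875 in H929). ALDH1L2 overlaps C12orf45, at 8.57 to 15.3 FPKM, which was above ALDH1L2 in 5 of the 8 libraries. In the ARP1 library labelled knockdown C12orf45 was 12.4 FPKM against 44.4 for ALDH1L2. C12orf45 was 8.57 FPKM in the control of that library. In H929 it was 9.64 in the control of knockdown and 9.65 in the library labelled knockdown.

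The 10 genes varied together over the libraries. With log2(FPKM + 1) centred within each line, the correlation of each gene with the mean of the other 9 was 0.929 (ALDH1L2) to 0.994 (ASNS) over 8 libraries, which share their line and the contrast behind the choice. The slope on that mean ran from 0.48 for MTHFD2 and 0.50 for SHMT2 to 1.46 for PCK2 and 1.95 for CTH, so the abundant mitochondrial folate enzymes moved least and CTH most. Among 11016 other genes with a mean of at least 2 FPKM, the 10 most like the mean of the set were SESN2 (r = 0.996), INHBE (0.994), ZBED3 (0.993), SLC7A11 (0.992), TUBE1 (0.989), ANTXR2 (0.988), DNASE2 (0.988), CHAC1 (0.987), SLC6A9 (0.986) and ZNF627 (0.986), and 223 had r above 0.9.

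SESN2, which encodes a leucine sensor that restrains mTORC1, was at 8.57, 11.5, 23.6 and 117 FPKM in ARP1 and at 6.57, 5.76, 7.86 and 25.9 in H929. INHBE, which encodes an activin subunit, was at 3.19, 5.54, 10.8 and 80.9 FPKM in ARP1 and at 1.56, 1.38, 1.91 and 10.4 in H929. SLC7A11, the cystine importer, was at 3.88, 5.24, 11.3 and 29.3 FPKM in ARP1 and at 7.725, 6.84, 8.80 and 22.4 in H929. Each was highest in the library labelled knockdown, and in ARP1 each was next highest in the control of knockdown. Because these genes were picked by their likeness to the enzymes over the same libraries, that shared order follows from the ranking and is no separate result.

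Beside the 10 enzymes, 66 genes of the same metabolism were looked at, all of them in the table and 58 tested: paralogs, other folate and glycine cleavage genes, sulfur amino acid and glutathione genes, other amino acid enzymes and purine synthesis. Against its control the library labelled knockdown was higher in both lines in 15 of the 58, close to the 27.2% of all genes. It was lower in both lines in 11 of the 58, where 4302 of all 14905 genes tested were. Their median log2 difference was -0.20 in ARP1 and 0.05 in H929. In ARP1, 1 of 58 was 2-fold or more higher, the serine racemase SRR (7.15 to 15.6 FPKM), and 3 were 2-fold or more lower: GLDC of glycine cleavage (22.3 to 10.0), GCLM of glutathione synthesis (6.39 to 2.57) and IMPDH1 of guanine nucleotide synthesis (50.9 to 22.9). In H929 0 of 58 were 2-fold or more higher, and SRR, GLDC and IMPDH1 were at 10.3, 25.2 and 79.0 FPKM against 11.5, 25.04 and 84.5 in the control. GCLM was at 8.86 against 9.98 FPKM there.

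Members of that metabolism that were higher in both lines included PYCR1, which makes proline (100.6 to 153 FPKM in ARP1, 84.9 to 125 in H929), and CBS (14.5 to 25.7, 10.55 to 15.3). Under overexpression 0 of 58 passed, and 2 had an unadjusted p under 0.05, SHMT1 as above and ALDH1L1, lower in both lines (log2 difference -0.41, SE 0.12, limma adjusted p = 0.994). Between the lines 8 of 58 passed with ARP1 higher (13.7% of all genes) and 8 with ARP1 lower (13.4% of all genes), so both counts are near the share of all genes. The largest differences were with ARP1 higher: GLUL at 4.03 (SE 0.18) and BCAT1 at 3.62 (SE 0.31). In H929 GLUL did not exceed 0.111 FPKM and BCAT1 did not exceed 0.209. Among those lower in ARP1 were GLDC at -0.85 (SE 0.18, limma adjusted p = 0.0175), the folate carrier SLC19A1 at -0.73 (SE 0.16, adjusted p = 0.0199) and IMPDH1 at -0.91 (SE 0.20, adjusted p = 0.0202).

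ATF4, its partners, its feedback genes and the kinases upstream of it make up the last list, with 11 of 12 genes tested and NUPR1 listed at 0 in all libraries. In the library labelled knockdown 9 of 11 were higher than in the control in both lines (27.2% of all genes), and in 7 that library was the highest of its line in both (11.8%). ATF4 RNA was at 320.5, 322.5, 347 and 618 FPKM in ARP1 and at 258, 281, 191 and 376.5 in H929. ATF4 thus was highest in the library labelled knockdown in each line, and in the ARP1 control of knockdown it was near its level in the control of overexpression, as ALDH1L2 was among the enzymes.

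TRIB3, a feedback inhibitor of ATF4, had 91.75 FPKM in the ARP1 library labelled knockdown where its control had 20.9, and the H929 pair had 28.8 where the control had 17.5. DDIT3, the stress factor CHOP, had 39.3 where its control had 8.32 (ARP1), and 11.7 where it had 9.51 (H929). CEBPB, a dimer partner of ATF4, had 55.8 where its control had 17.8 (ARP1), and 26.15 where it had 13.2 (H929). ATF3, of the same list, had 28.95 where its control had 8.37 (ARP1), and 15.2 where it had 3.70 (H929). The log2 difference of ATF3 was 1.68 in ARP1 and 1.79 in H929. That of ATF4 was 0.83 and 0.97, so both were larger in H929, unlike those of TRIB3, DDIT3 and CEBPB. Against the control of overexpression both were larger in ARP1, at 2.01 and 1.39 for ATF3 and 0.94 and 0.54 for ATF4. Against the control of knockdown the median log2 difference of the 11 genes was 0.95 in ARP1 and 0.27 in H929, whereas that of the 10 enzymes was 1.11 and 1.13. Against the control of overexpression these medians were 1.52 and 0.54 for the 11 genes, and 2.02 and 1.07 for the enzymes. Whether the 11 genes differ more between the lines than the enzymes do was not tested.

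**Figure D5:**
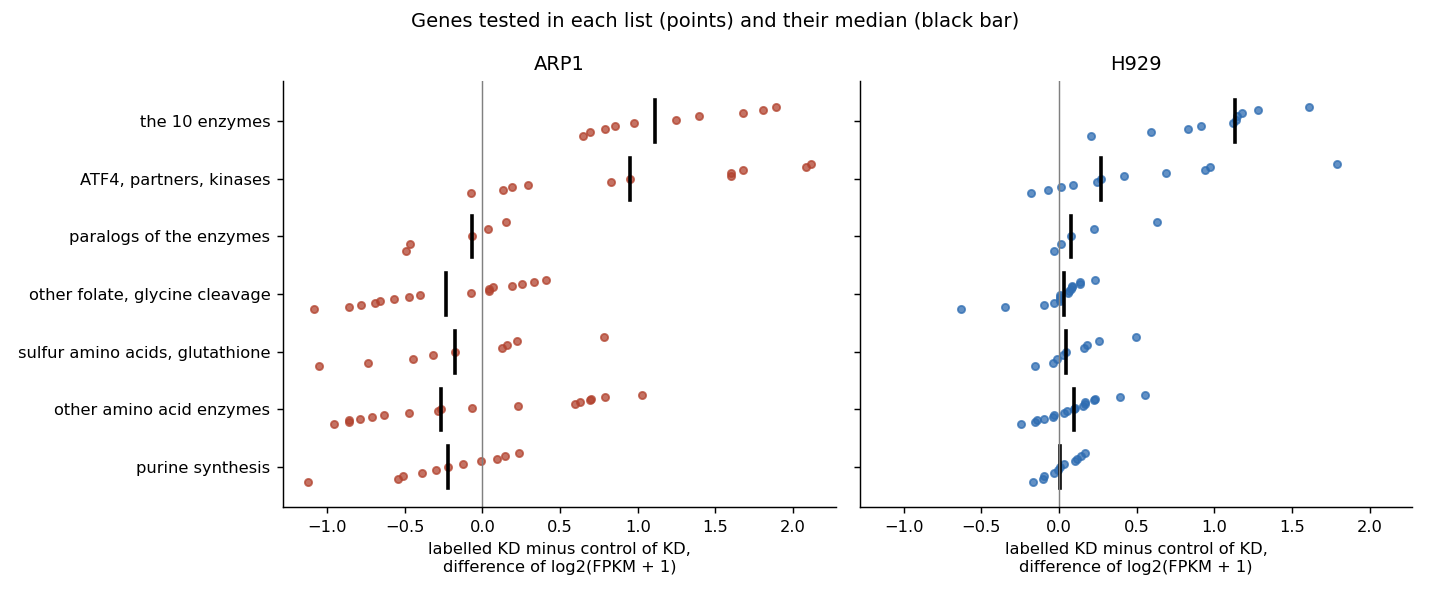
Difference of log2(FPKM + 1) between the library labelled knockdown and its control (x axis) for the tested genes of each list (1 point per gene, black bar for the median), in ARP1 on the left and H929 on the right. The 10 enzymes have a median of 1.11 and 1.13, the list of ATF4, partners and kinases 0.95 and 0.27, and the medians of the other metabolic lists run from -0.26 to 0.10.

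Single markers of other cells moved with the same contrast at low levels, and not in one direction. COL1A1, a stromal collagen, was lower in the library labelled knockdown than in its control (1.11 to 0.142 FPKM in ARP1, 3.30 to 0.339 in H929), as was KRT18, an epithelial keratin (2.665 to 0.7965, and 1.57 to 0.526). KRT8, the keratin that pairs with it, was higher (0.0773 to 0.445, and 1.61 to 2.26), and the stromal receptor PDGFRB was lower in ARP1 (0.295 to 0.0387) and slightly higher in H929 (3.94 to 4.05). The part of these markers in the values of the 10 enzymes was not tested.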

How the data were processed

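The authors deposited 1 table of FPKM per transcript, with 1 column for each of the 8 libraries. The table calls its values means, and none of the sources used here says what was averaged. Per the submitters' processing notes, Bowtie 0.12.2, HISAT2 2.0 and StringTie 1.3.0 were used with the mouse build mm8. The transcript IDs are human, so the build they were counted on is not known here. The protocol in the labels mentions fat tissue, and the 4 fat cell markers did not exceed 0.132 FPKM. The sources used here give no read depth, and the values show no whole-read steps, so no counting error could be given.

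IDs were matched to GENCODE 29 (GRCh38): 87707 of 88209 matched, and the other 502 were dropped before FPKM was added up over the transcripts of a gene. Genes with at least 1 FPKM in at least 2 libraries (14905, all 10 enzymes among them) were fitted as log2(FPKM + 1) in limma 3.58.1 (R 4.3.3), with genotype and line as terms and a variance trend (3 residual and 3.7 prior degrees of freedom). A fold change on this scale understates that of low genes. Tests were two-sided, with Benjamini-Hochberg adjustment over all genes and a threshold of 0.05. The pairing by line comes from the labels, each line holding every genotype once. Transcripts were fitted likewise.

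The 10 enzymes, the other lists, the rules and the alternatives were chosen with earlier results of these data known. All 10 enzymes are named. Of the other lists, genes were named among the 4 with the largest mean absolute difference in the libraries labelled knockdown, those passing between the lines where few did, and the genes compared with an enzyme. SLAMF7, COL1A1, KRT18, KRT8, PDGFRB, PHGDH-209, ALDH1L1, GLUL, BCAT1 and ATF4 were named after their values were seen. RefSeq (GRCh38.p14) held promoters of 6 of the 10 enzymes. Stretches for PHGDH and PCK2 are not printed because the RefSeq start lies 219 and 173 bases downstream of the start of the main transcript. The alternatives were other pseudocounts, filters, scalings, variance settings, transcript sets, controls and left-out libraries.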

Additional observations from a re-analysis of the deposited data

Results flagged for a closer look

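In 4 of the 10 enzymes, overexpression against its control pointed in opposite directions in the lines, higher in ARP1 and lower in H929. The log2 difference was 0.266 in ARP1 and -0.147 in H929 for PHGDH. For ASNS it was 0.229 and -0.107. For SHMT2 it was 0.046 and -0.239. For CTH it was 0.625 and -0.118. Each value is 1 library against 1, so the difference between the lines was not tested.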

How the results depend on the processing

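The count of enzymes passing under overexpression was 0 in all alternatives run, also with no replicate block (0 of 10, and 1 of all genes) and with single libraries left out (0 to 0). The fit without the block changed no call. Of all genes, 1 passed under overexpression, 0 to 3 with single libraries left out, 4 in a fit of the 4 libraries of that comparison, 2 with no filter, and 0 with pooled controls, protein-coding transcripts or no short transcripts. Between the lines 4035 of all genes passed, and 1948 to 4136 with single libraries left out. Between the lines 2 enzymes passed, 2 to 4 with single libraries left out, 3 with protein-coding or without short transcripts, and 0 without the genotype term. The 4 were reached without either control of overexpression, when ASNS and PHGDH were added. For transcripts the count between the lines was 5, and 3 with a pseudocount of 0.1. In the library labelled knockdown 5 enzymes were 2-fold or more higher in both lines, 9 at 1.5-fold, and 5 to 6 with single libraries left out, where the 6 is the count in H929 alone. Their median of 1.139 moved to 0.767 to 1.396 with single libraries left out, and to 1.51 against the other control.

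Directions turned where values were near 0. Between the lines MTHFD2 was 0.005 with median-ratio scaling and -0.108 to 0.144 with single libraries left out, CTH -0.471 to 0.217 and PSPH -0.023 to 0.251. Under overexpression, pooling both controls gave -0.281 for PHGDH, -0.217 for ASNS and -0.278 for CTH. With single libraries left out the range was -0.316 to 0.435 for PHGDH, -0.120 to 0.560 for PSAT1, -0.176 to 0.357 for PSPH, -0.462 to 0.584 for ASNS, -0.320 to 0.128 for SHMT2, -0.089 to 0.515 for MTHFD2, -0.584 to 0.270 for ALDH1L2, -0.489 to 0.279 for PCK2 and -0.526 to 1.034 for CTH. A lone library left in a group is assumed to vary like the others. The cause of these changes was not tested. Scaling moved the median of all genes by under 0.1 on the log2 scale. With 2 lines and 1 library per genotype in each, precision rests on few libraries.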
